A study of Mus musculus with 6 samples.

Results

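The genes described here are 34 mouse genes for protein folding in the endoplasmic reticulum (ER) and for the unfolded protein response (UPR), taken by name from the 39179 genes in the count files. All 34 were found, each once, by Ensembl gene identifier. They were measured by poly(A)-selected RNA sequencing in B16-F10 cells, a mouse melanoma line grown in culture, that were labelled either Sirpa-wild type (Sirpa-WT, 3 libraries) or Sirpa-knockout (Sirpa-KO, 3 libraries). Sirpa encodes SIRPα, a receptor for CD47, and the question is how the untreated lines differ in their RNA. The labels give no treatment, nor how the knockout was made, whether either line is a clone, or if each replicate was its own culture. The p-values therefore cover only the scatter among the libraries at hand. A label field gives Pmel as cell line and tumor as tissue, whereas the series' design text speaks of B16-F10 grown in vitro. In bulk RNA, fewer cells of a kind and less RNA per cell cannot be told apart.

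Proteins that enter the secretory pathway pass through the SEC61 translocon into the ER, where chaperones of the HSP70 and HSP90 families, lectin chaperones and disulfide isomerases fold them. Proteins that fail to fold are carried back to the cytosol and degraded, a process called ER-associated degradation. When unfolded proteins build up, the sensors IRE1α (Ern1), PERK (Eif2ak3) and ATF6 start the UPR. IRE1α splices Xbp1 RNA into the form that encodes an active transcription factor, and XBP1 and ATF6 then raise the genes of chaperones, isomerases and degradation factors. Counts per gene, as deposited, do not separate spliced from unspliced Xbp1 RNA.

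The promoters of the members are shown because ATF6 and XBP1 act on known short elements there. Windows from 250 bases before to 50 bases after the transcript start came from RefSeq on GRCm38.p6, and 28 of 34 members had one (not Hyou1, Manf, Sec61a1, Ssr2, Derl1 and Atf6). The ER stress response element (ERSE), CCAAT and CCACG with 9 bases of any kind between them, was searched on both strands as exact letters. It occurred in 39 of 32851 windows of all genes (0.119%). Counted by gene, it occurred in 37 of 27025 genes (0.137%) and in 8 of the 28 members (28.6%). ERSE-II, ATTGG and CCACG with 1 base between them, occurred in 0.0444% of all genes and in 2 of the 28 members, Herpud1 and Dnajb11. The UPR element (UPRE), TGACGTGG, occurred in 0.714% of all genes and in 1 of the 28 members, Txndc5, in 1 of its 3 windows. ERSE-II and UPRE each share letters with an end of ERSE on 1 of the strands. Several members are textbook targets of these elements, and a match is a description, not a site. The ERSE matches follow, with 10 flanking bases on each side, the element in capitals, read 5′ to 3′ in the direction of the element.
Hspa5 (chr2:34772015-34772053, plus strand): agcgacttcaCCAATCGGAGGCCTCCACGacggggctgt
Hsp90b1, first (chr10:86705628-86705666, minus strand): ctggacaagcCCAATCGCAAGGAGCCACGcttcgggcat
Hsp90b1, second (chr10:86705523-86705561, plus strand): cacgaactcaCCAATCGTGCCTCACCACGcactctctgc
Calr (chr8:84847065-84847103, plus strand): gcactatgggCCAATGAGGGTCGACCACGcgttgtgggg
Canx (chr11:50325790-50325828, minus strand): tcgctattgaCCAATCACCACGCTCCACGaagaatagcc
Pdia6 (chr12:17266481-17266519, plus strand): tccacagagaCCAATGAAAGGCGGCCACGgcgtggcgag
Dnajc3 (chr14:118937817-118937855, plus strand): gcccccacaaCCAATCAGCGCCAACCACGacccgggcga
Creld2 (chr15:88819510-88819548, minus strand): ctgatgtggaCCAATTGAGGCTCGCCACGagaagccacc
Syvn1 (chr19:6046522-6046560, plus strand): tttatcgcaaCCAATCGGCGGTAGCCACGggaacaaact

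**Figure D1:**
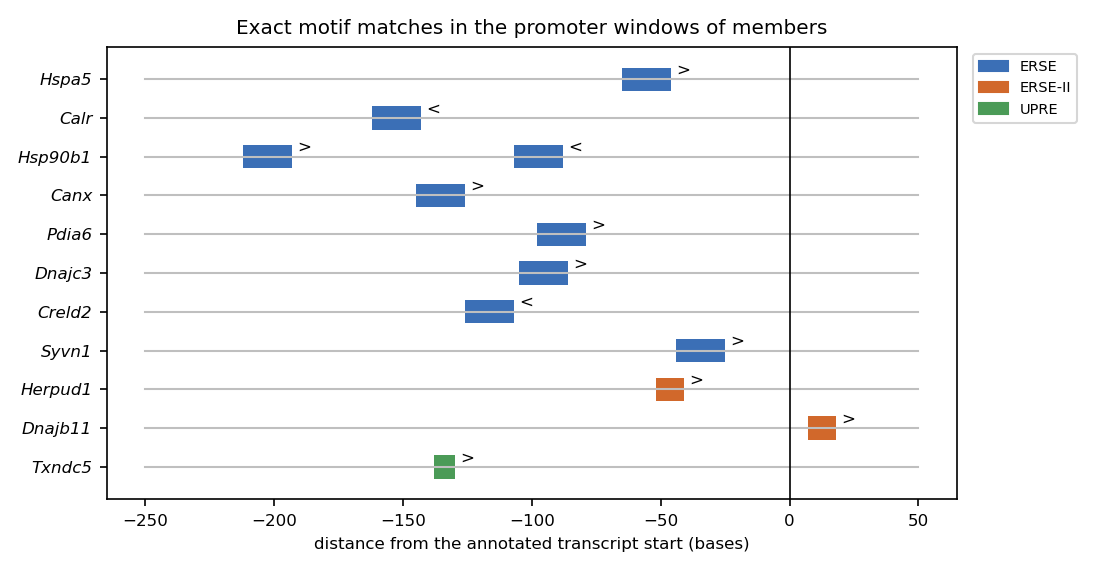
Position of each exact match to ERSE (blue), ERSE-II (orange) and UPRE (green) relative to the annotated transcript start at 0 (horizontal axis, bases) in the windows of 11 members, with > for the strand of the gene and < for the other strand. The ERSE matches lie between 212 and 26 bases before the start, and the Dnajb11 element lies after it.

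Total counts were 338824 to 411695 in 5 libraries and 29877270 in Sirpa-KO replicate 1 (below, the deep library), which held 82.6 times the mean of the others. Its CPM (counts scaled to a library's total) stand apart from the other 5. The labels give no reason for its depth, and whether its values can be compared with the others was not tested. Calls and fold changes are therefore given over 5 libraries, with the 6-library value beside them where the deep library changes a call or a direction or moves a value by much. For Sirpa itself the 3 Sirpa-WT libraries held 12, 7 and 3 counts, and the 3 Sirpa-KO libraries 1584, 6 and 6. Relative to total counts, Sirpa was highest in the deep library, which is labelled Sirpa-KO. These counts do not check the genotype labels, so groups are named as labelled. All 9 listed melanocyte markers had counts, with a summed CPM of 16834 to 20109.5 in Sirpa-WT, of 13553 and 14192 in Sirpa-KO replicates 2 and 3, and of 18027 in the deep library. Plasma cells, a cell type rich in ER, left little sign, since Jchain and Pou2af1 had no count in any library and the 5 plasma cell markers summed to at most 45.2 CPM. Leukocyte markers summed to at most 27.2 CPM in any library, fibroblast markers to 13.6, and endothelial and epithelial markers to 2.72 and 2.95. Cd3e, Dcn, Lum, Cdh5 and Kdr were at 0 in all 6 libraries. The part of the melanocyte marker difference in the results below was not tested.

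Without the deep library, 3 members fell in Sirpa-KO and none rose. They were Xbp1, the UPR transcription factor, Pdia6, a disulfide isomerase, and Ssr2, a subunit of the translocon-associated protein complex. Pdia6 was called under most settings, Xbp1 depended on Sirpa-KO replicate 3, and Ssr2 lay at the threshold. The major chaperone genes Hspa5, Hsp90b1 and Calr were not called, and the 95% intervals of their log2 fold changes stayed within a 2-fold change either way. EdgeR's quasi-likelihood test was run on all genes that passed a filter on low counts, with Benjamini-Hochberg adjustment over all of them. Of the 34 members 26 passed the filter, and 3 of these (11.5%) were called at an adjusted p of 0.05, against 5.84% of all 5510 genes tested. Called lower were 3 of 26 members and 4.52% of all genes, and called higher were 0 of 26 members and 1.32% of all genes. At an unadjusted p of 0.05 edgeR passed the same 3 of 26 members (11.5%), all lower, against 20.8% of all genes. DESeq2 and limma voom also called no member higher, beside 16 and 72 of the 5510 genes. The median log2 fold change of the 26 tested members was -0.095, and that of all genes 0.013.

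With all 6 libraries edgeR called 0 of 26 tested members and 0% of 5397 genes. At an unadjusted p of 0.05, 1 of 26 members (Xbp1) and 344 of all 5397 genes (6.37%) passed. DESeq2 and limma voom also called 0 of 26 members. Of the same 5397 genes DESeq2 called 1, whereas limma voom called 1283, with 1266 of them lower. The median log2 fold change over 6 libraries was 0.28 for the tested members and 0.11 for all genes, so the members' median turned sign with the deep library. The sign turned for 10 of the 26 tested members and for 3 of the 8 under the filter. The 6-library and 5-library fits share 5 libraries, so neither is independent of the other. The biological coefficient of variation was 75.8% with the deep library and 7.25% without it. Directions also depend on scaling: with library size alone in place of TMM, the median log2 fold change of all genes over 5 libraries moved from 0.013 to 0.15 and that of the members from -0.095 to 0.043. The split of calls over all genes then went from 73 higher and 249 lower to 279 higher and 128 lower. Among the members it went from 0 higher and 3 lower to 1 higher (Canx) and 2 lower (Pdia6 and Xbp1).

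Pdia6 (ENSMUSG00000020571, GRCm38 chromosome 12, 17266545 to 17284770, plus strand) encodes a protein disulfide isomerase that works beside BiP and also restrains IRE1α and PERK signalling. It stood at 1387, 1341 and 1470.2 CPM in the 3 Sirpa-WT libraries. In Sirpa-KO it stood at 472 CPM in the deep library and at 939 and 955 CPM in replicates 2 and 3. Both shallow Sirpa-KO libraries lay below all 3 Sirpa-WT libraries, and the deep library lay lowest. Mean CPM was 1399 ± 65.5 (SD, n = 3) in Sirpa-WT, and 947 ± 11.4 (SD, n = 2) in Sirpa-KO when the deep library was left out. On the log2 scale the change was -0.68 ± 0.10 (SE, edgeR adjusted p = 3.21e-08), or a level 0.623 times that of Sirpa-WT. The value lay between -0.72 and -0.64 with any 1 of the 5 libraries left out. Over 6 libraries it was -0.97 ± 0.47 (SE, edgeR adjusted p = 0.574). A gene that overlaps it, Atp6v1c2, shares 1.34% of its exonic bases.

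Xbp1 (ENSMUSG00000020484, chromosome 11, 5520659 to 5525893, plus strand) encodes the transcription factor whose RNA is spliced by IRE1α. Sirpa-WT libraries held 153, 131 and 145 CPM of it, and Sirpa-KO replicates 1 to 3 held 106, 106 and 65.3 CPM. The groups did not overlap, and the lowest value was in Sirpa-KO replicate 3, at 24 counts. Mean CPM was 143 ± 11.2 (SD) over the 3 Sirpa-WT libraries and 85.8 ± 29.0 (SD) over the 2 shallow Sirpa-KO libraries. The log2 fold change was -0.87 ± 0.23 (SE, edgeR adjusted p = 0.00596). Without Sirpa-KO replicate 3 it was -0.56 and not called (edgeR adjusted p = 0.373), and without Sirpa-KO replicate 2 it was -1.27 (adjusted p = 0.00659). These 2 fits leave 1 Sirpa-KO library, which is then assumed to vary like the Sirpa-WT group. Over 6 libraries the value was -0.78 ± 0.30 (SE, edgeR adjusted p = 0.574), with a 95% interval of -1.52 to -0.05.

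Ssr2 (ENSMUSG00000041355, chromosome 3, 88579671 to 88588397, plus strand) encodes a subunit of the complex that sits beside the SEC61 channel. Its level was 564, 582 and 585 CPM in Sirpa-WT, and 207, 449 and 506 CPM in Sirpa-KO replicates 1 to 3. Both shallow Sirpa-KO libraries were again below all Sirpa-WT libraries, and the deep library was lower still. The log2 fold change without the deep library was -0.39 ± 0.13 (SE, edgeR adjusted p = 0.0496), and with it -0.72 ± 0.44 (adjusted p = 0.574). Ssr2 was called in 4 of 17 alternatives, and leaving out Sirpa-WT replicate 2 or 3 or Sirpa-KO replicate 2 or 3 ended the call (edgeR adjusted p = 0.131, 0.0688, 0.397 and 0.138). Of its transcripts' 25-base words, 9.83% also occur in annotated pseudogenes, so its counts may be split between copies.

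**Figure D2:**
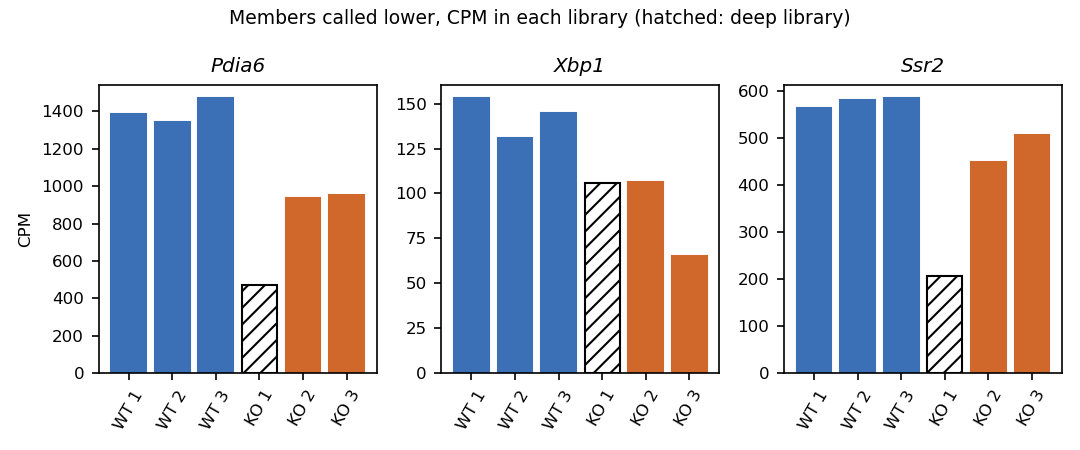
CPM (vertical axis, from 0) of Pdia6, Xbp1 and Ssr2 in each of the 6 libraries, one bar per library, with Sirpa-WT in blue, Sirpa-KO replicates 2 and 3 in orange and the deep Sirpa-KO replicate 1 open and hatched. In each panel every Sirpa-KO bar is lower than every Sirpa-WT bar, as for Pdia6 with 472 to 955 CPM against 1341 to 1470.2.

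Over all 6 libraries the CPM groups did not overlap, with Sirpa-KO lower, in 3 of 26 tested members (11.5%), which were Pdia6, Xbp1 and Ssr2. The share over all tested genes was 10.2%. Sirpa-KO was higher without overlap in 4 members (15.4%, against 20.4% of all genes), which were Hsp90b1, Canx, Pdia3 and Ssr1. None of the 4 passed edgeR's test. Over the 5 shallow libraries alone, 4 tested members were lower without overlap (Derl1 besides these 3), against 11.8% of all genes, and the same 4 were higher, against 26.3%.

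Of the 8 members with an ERSE, 7 were tested without the deep library and 1, Pdia6, was called, with log2 fold changes from -0.68 to 0.22 and a median of -0.05. Of the 20 members with a window and no ERSE, 14 were tested and 1, Xbp1, was called, with a median of -0.18. Of all genes tested, 5.84% were called. The members without an ERSE include Herpud1 and Dnajb11, with an ERSE-II, and Txndc5, with a UPRE. Over 6 libraries the medians of members with and without an ERSE were above 0, at 0.40 and 0.24, and edgeR called none. In Sirpa-WT the ERSE members had a median of 154 FPKM and a range of 3.49 to 374, and the members without one a median of 17.0 and a range of 1.84 to 144, so the ranges overlapped. The upstream sequences of the 2 called genes that had a window, and of Hspa5 as a gene with the same element that was not called, are printed for comparison, with exact matches to the elements in capitals and all from the plus strand.
Pdia6 (chr12:17266339-17266588): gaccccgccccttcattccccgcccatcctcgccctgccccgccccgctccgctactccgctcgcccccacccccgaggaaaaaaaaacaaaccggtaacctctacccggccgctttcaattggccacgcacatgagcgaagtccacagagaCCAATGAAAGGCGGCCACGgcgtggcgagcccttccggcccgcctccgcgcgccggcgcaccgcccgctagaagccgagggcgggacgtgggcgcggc
Xbp1 (chr11:5520391-5520640): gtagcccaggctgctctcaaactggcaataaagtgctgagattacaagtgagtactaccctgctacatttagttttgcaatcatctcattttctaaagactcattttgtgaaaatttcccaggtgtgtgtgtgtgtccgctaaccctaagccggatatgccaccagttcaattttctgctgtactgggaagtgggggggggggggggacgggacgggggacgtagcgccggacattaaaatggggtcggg
Hspa5 (chr2:34771840-34772089): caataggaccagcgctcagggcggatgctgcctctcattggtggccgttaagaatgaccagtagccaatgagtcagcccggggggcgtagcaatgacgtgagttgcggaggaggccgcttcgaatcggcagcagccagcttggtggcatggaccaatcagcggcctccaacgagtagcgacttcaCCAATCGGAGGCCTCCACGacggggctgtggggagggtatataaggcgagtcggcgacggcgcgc
The letters of Pdia6 hold 1 ERSE at 98 to 80 bases before the start, those of Hspa5 hold 1 at 65 to 47 bases, and no exact match was found in this window of Xbp1. No match says only that these letters are not in this window.

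Of the 9 genes of ER chaperones and co-chaperones 8 were tested without the deep library and 0 were called, with a median log2 fold change of -0.11. Over 6 libraries the median was 0.25, with 6 of 8 above 0. Hspa5, which encodes BiP, the HSP70 of the ER and the main regulator of the sensors, was at a similar level in the shallow libraries of both groups. Sirpa-WT held 692, 788 and 738 CPM, and Sirpa-KO replicates 2 and 3 held 738 and 756 CPM, with 1256 CPM in the deep library. The log2 fold change without the deep library was -0.10 ± 0.12 (SE, edgeR adjusted p = 0.67), with a 95% interval of -0.33 to 0.13, and with it the value was 0.15. The shallow groups overlapped, and only the deep library lay outside them. Hsp90b1, the HSP90 of the ER, had 721 to 828 CPM in Sirpa-WT, 857 and 862 in Sirpa-KO replicates 2 and 3, and 1783 in the deep library. Both shallow Sirpa-KO libraries lay above Sirpa-WT in CPM, while the log2 fold change under TMM was 0.01 with an interval of -0.21 to 0.24 (0.40 with the deep library). For this gene 15.7% of its exonic bases overlap other genes and 9.01% of its 25-base words occur in pseudogenes. The HSP40 co-chaperones Dnajb9, Dnajb11 and Dnajc3, the BiP partner Hyou1, and Manf and Creld2, both small ER stress proteins, were tested and not called. With the deep library the log2 fold change went from 0.17 to 1.07 for Dnajc3 and from -0.11 to 0.44 for Creld2. It went from -0.25 to 0.04 for Manf, from 0.07 to 0.35 for Hyou1, from -0.55 to -0.64 for Dnajb9 and from -0.32 to -0.30 for Dnajb11. Of these, Dnajb9 had 34.7 to 38.9 CPM in Sirpa-WT, next to 35.4 and 19.0 for Sirpa-KO replicates 2 and 3, where 1 library matched Sirpa-WT and the other did not. Sdf2l1, a partner of ER HSP40 proteins, had 1 to 5 counts in the shallow libraries and was not tested.

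The lectin chaperones calreticulin (Calr) and calnexin (Canx) bind newly made glycoproteins. Calr had 889, 718 and 645 CPM in Sirpa-WT, 926 in the deep library, and 708 and 873 in Sirpa-KO replicates 2 and 3. The groups overlapped, and on the log2 scale Sirpa-KO differed by -0.05 ± 0.12 (SE, edgeR adjusted p = 0.857), with an interval of -0.28 to 0.18. Canx stood at 510.1, 558 and 521 CPM in Sirpa-WT, against 1502, 667 and 677 CPM for Sirpa-KO replicates 1 to 3. Its groups did not overlap, but edgeR's adjusted p was 0.291 under TMM scaling at a log2 fold change of 0.22, and 0.0479 with library size alone at 0.36. Over 6 libraries the log2 fold change was 0.67 (edgeR adjusted p = 0.574).

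The 7 isomerases were all tested, and Pdia6 was the only one called. Pdia3, the isomerase that works with the lectin chaperones, had 384 to 411 CPM in Sirpa-WT, against 469 to 813 CPM over the 3 Sirpa-KO libraries. Its log2 fold change without the deep library was 0.21, with an interval of -0.06 to 0.48, and 0.43 with it. P4hb, the founding disulfide isomerase, had 318 to 466 CPM in Sirpa-WT, next to 439.8 and 495 for Sirpa-KO replicates 2 and 3. Pdia4 had 333 to 394 CPM in Sirpa-WT, next to 357 and 373. For both, the shallow groups overlapped. Without and with the deep library the log2 fold change was 0.11 and 0.35 for P4hb, and -0.09 and 0.09 for Pdia4. Txndc5, Erp44 and the prolyl isomerase gene Ppib were less abundant, with 11 to 26 counts in Sirpa-WT libraries, and on the log2 scale their 95% intervals ran from -1.02 to 0.34, from -0.98 to 0.23 and from -1.24 to 0.18. Over 6 libraries their log2 fold changes were above 0, at 0.97, 0.14 and 0.52, with none called. For Ppib, 54.2% of exonic bases overlap the exons of Snx22, so fragments there could not be given to 1 gene.

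Of the translocon genes, Sec61a1, the pore subunit, had 113 to 159 CPM in Sirpa-WT, next to 97.4 and 179.5 for Sirpa-KO replicates 2 and 3. The deep library held 359 CPM of Sec61a1, and its log2 fold change was -0.03 without that library and 0.52 with it. Ssr3 and Ssr1, partners of Ssr2 in the translocon-associated complex, had log2 fold changes of 0.08 and 0.03 without the deep library, and of 0.64 and 0.42 with it. Their 95% intervals, -0.23 to 0.40 and -0.36 to 0.41, hold values on both sides of 0, while that of Ssr2 ran from -0.65 to -0.13. Whether Ssr2 differed from these partners was not tested. Sec61b, a small subunit of the channel, had 3 to 11 counts in the shallow libraries and 3976 in the deep one, and was under the filter.

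Of the 7 genes of ER-associated degradation 4 were under the filter. The 3 tested were not called, with a median log2 fold change of -0.27 without the deep library and 0.21 with it. Derl2, a membrane protein of the export channel, was close to its paralog Derl1 in FPKM, with 19.2 against 19.3 in Sirpa-WT, 18.5 against 18.1 as means of the 5 shallow libraries, and 13.1 against 41.9 in the deep library. Sirpa-WT held 153, 163 and 148 CPM, against 106, 159 and 119.7 CPM for Sirpa-KO replicates 1 to 3. The log2 fold change without the deep library was -0.27 ± 0.21 (SE, edgeR adjusted p = 0.48), with the deep library it was -0.42, and 1 Sirpa-KO library lay within the Sirpa-WT range. Derl1 and Edem1, which sorts misfolded glycoproteins for export, were tested and not called. Without and with the deep library the log2 fold change was -0.37 and 0.21 for Derl1, and 0.04 and 1.17 for Edem1. Herpud1, Sel1l, Syvn1 and Os9, parts of the HRD1 ubiquitin ligase complex and its helpers, had 3 to 23 counts in the shallow libraries. Herpud1 spread widely within Sirpa-WT alone, with 55.9, 26.2 and 20.3 CPM.

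The sensor genes were at the low end of the members. Ern1 stood at 51.0, 43.6 and 34.7 CPM in the Sirpa-WT libraries, and at 23.3, 53.1 and 46.2 CPM in Sirpa-KO replicates 1 to 3. Its log2 fold change without the deep library was 0.07 ± 0.33 (SE, edgeR adjusted p = 0.942), with an interval of -0.59 to 0.72, and with it the value was -0.25. Only the deep library was below the Sirpa-WT range. Atf6 had 8, 8 and 6 counts in the Sirpa-WT libraries, against 7 and 7 in Sirpa-KO replicates 2 and 3. Eif2ak3 had 4, 3 and 4 against 3 and 2. Both were under the filter, and a fit without it gave Atf6 -0.17 ± 0.51 (SE, edgeR adjusted p = 0.946) and Eif2ak3 -0.63 ± 0.80 (adjusted p = 0.798). With the deep library both were 0.34. The interval for Eif2ak3, -2.19 to 0.93, leaves room for a change of more than 2-fold. The smallest difference detectable for Eif2ak3 at this depth was not computed. For 3 counts, the floor is 7.29 to 8.85 CPM in the shallow libraries, and Eif2ak3 at 5.44 to 11.6 CPM lies around it.

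**Figure D3:**
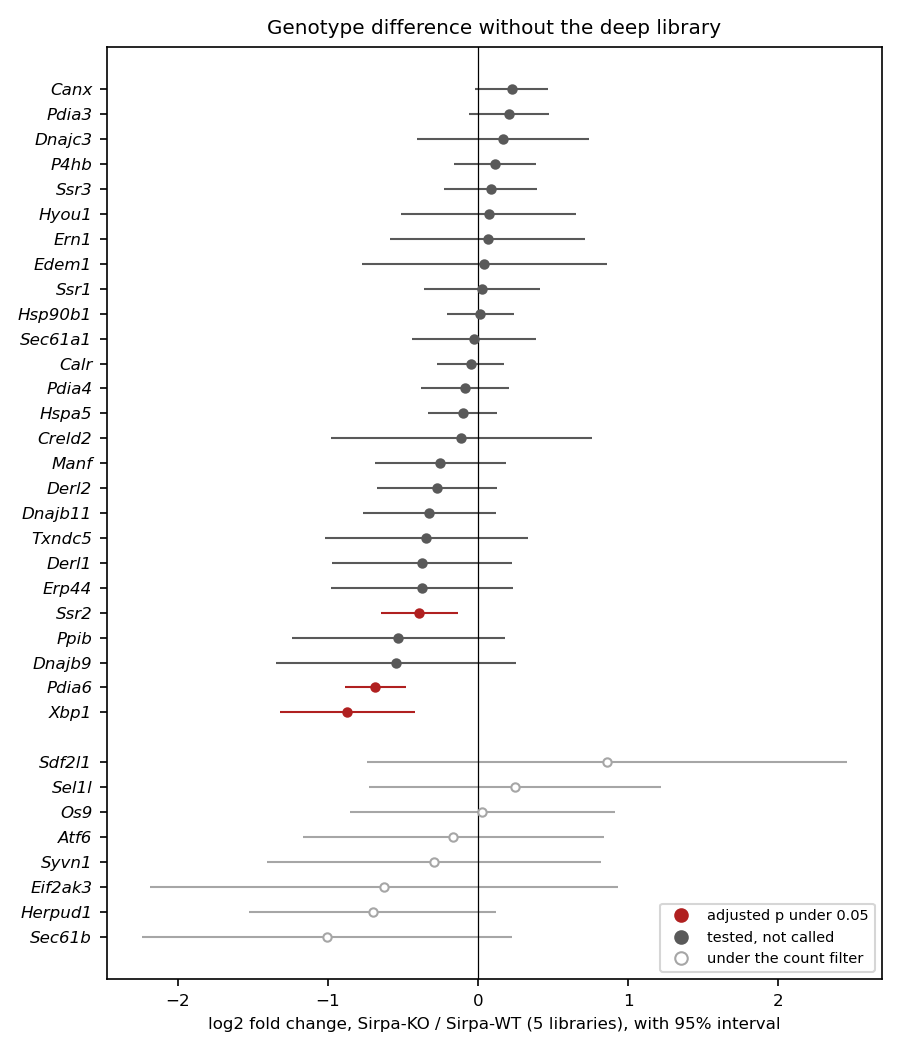
Log2 fold change of Sirpa-KO against Sirpa-WT over 5 libraries (horizontal axis) for each member, as a point with its 95% interval, for the 26 tested members above and the 8 under the count filter below. Pdia6, Xbp1 and Ssr2, in red, are the members called, and the other 23 tested members lie between -0.55 and 0.22.

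Of the 23 tested members that were not called, 20 had a 95% interval that lay within a 2-fold change in both directions. The other 3 were Dnajb9, Ppib and Txndc5, each with an interval that reached below -1.

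Levels of different genes were compared per length, as FPKM (CPM divided by the gene's exonic length in kilobases). In Sirpa-WT, Ssr2 (494 ± 9.79, SD, n = 3) and Pdia6 (374 ± 17.5) were the highest, followed by Calr (261 ± 43.4), Hspa5 (211 ± 13.7) and Hsp90b1 (194 ± 13.8). Hspa5 stood above 89.3% of tested genes. Library values overlapped between Calr (224 to 309) and Hspa5 (197 to 224), and between Hspa5 and Hsp90b1 (179 to 205). At the other end were Atf6 (2.17 ± 0.32), Sel1l (2.08 ± 0.74) and Eif2ak3 (1.84 ± 0.27), whose library values overlapped. In the deep library the order began with Hsp90b1 (442), Hspa5 (358), Calr (321) and Canx (320.1), with Ssr2 the ninth (178) and Pdia6 the eleventh (126).

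**Figure D4:**
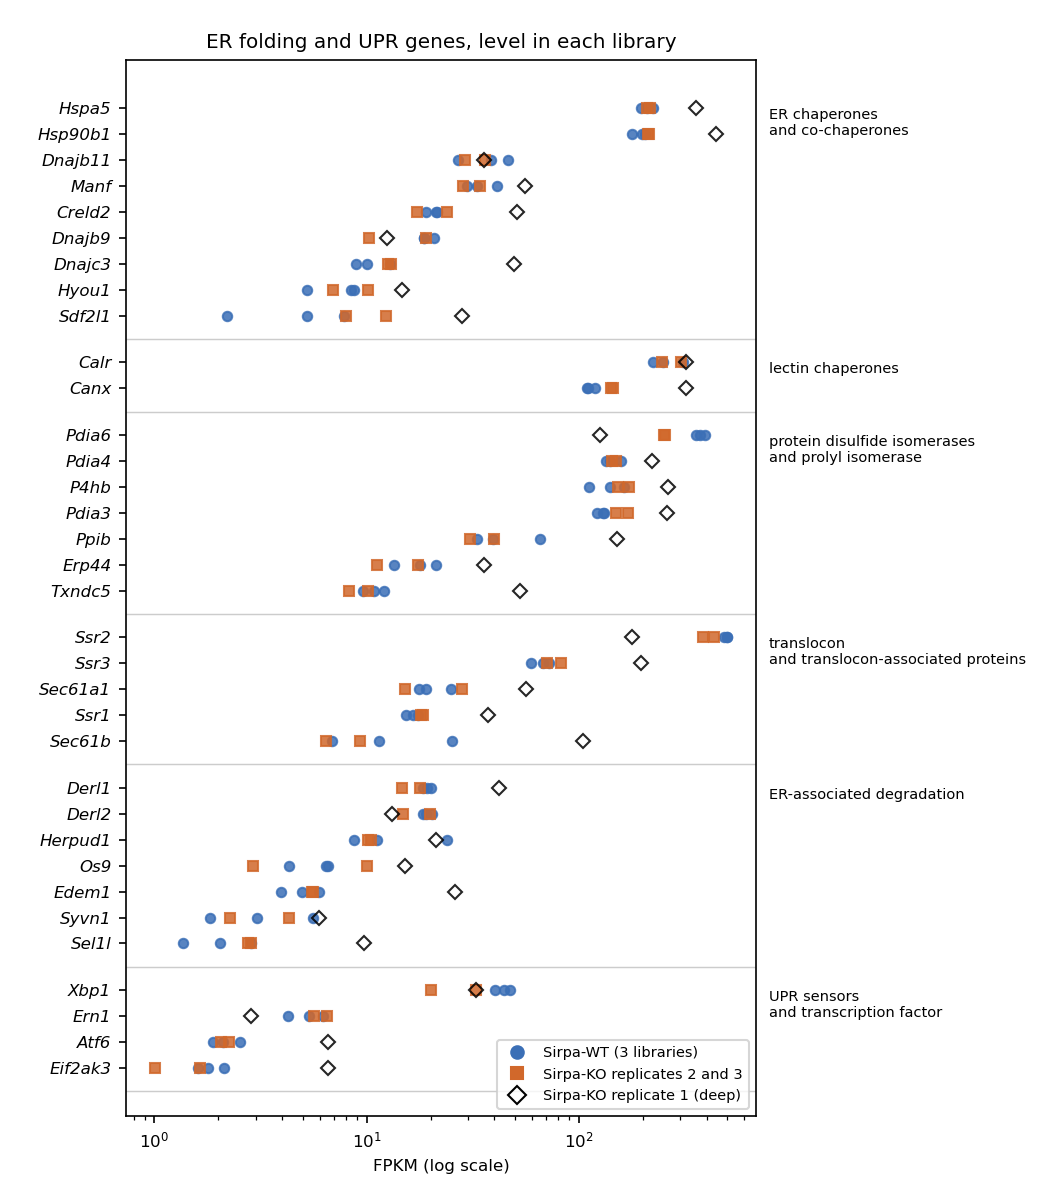
FPKM (horizontal axis, log scale) of each of the 34 members in each library, grouped by role, with Sirpa-WT as blue circles, Sirpa-KO replicates 2 and 3 as orange squares and the deep Sirpa-KO replicate 1 as open diamonds. The diamond lies to the right of all other points for 26 members and to the left of all others for Pdia6, Ssr2, Derl2 and Ern1.

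The called members were also set against all genes by their level in the deep library. All members together held 0.728% to 0.772% of counts in the 5 shallow libraries and 1.21% in the deep one. Over 3413 reference genes (tested, protein-coding, under 5% of words shared with pseudogenes), the log2 ratio of CPM in the deep library to its mean in the shallow ones had a median of 0.93. The shallow mean is over 3 Sirpa-WT and 2 Sirpa-KO libraries and the deep library is labelled Sirpa-KO, so a gene lower in Sirpa-KO has a lower ratio by construction. The ratio is thus no measure apart from the genotype, and what follows is a description. A ratio more than 1 log2 unit below that median was found in 1084 of them (31.8%). Their median log2 fold change between genotypes over the 5 shallow libraries was -0.27, against 0.18 for the other reference genes. Among the reference genes called lower, 95 of 105 had such a low ratio. Of the 34 members 6 had a low ratio by the same bound, and these were Pdia6, Ssr2, Ern1, Derl2, Dnajb9 and Xbp1. They include all 3 called members, at -2.29 (Pdia6), -2.30 (Ssr2) and -1.11 (Xbp1) relative to the median, so Xbp1 lies just inside the bound and Dnajb11, at -0.92, just outside it. The median log2 fold change was -0.47 over the 6 low-ratio members and -0.04 over the 20 other tested members.

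Removing the trend on that ratio within the shallow libraries left Pdia6 called at a log2 fold change of -0.41 (edgeR adjusted p = 0.00593) and Xbp1 at -0.78 (adjusted p = 0.0352). It ended the call of Ssr2, at -0.11 (adjusted p = 0.797). This removal can take away part of a difference between genotypes, for the same reason.

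**Figure D5:**
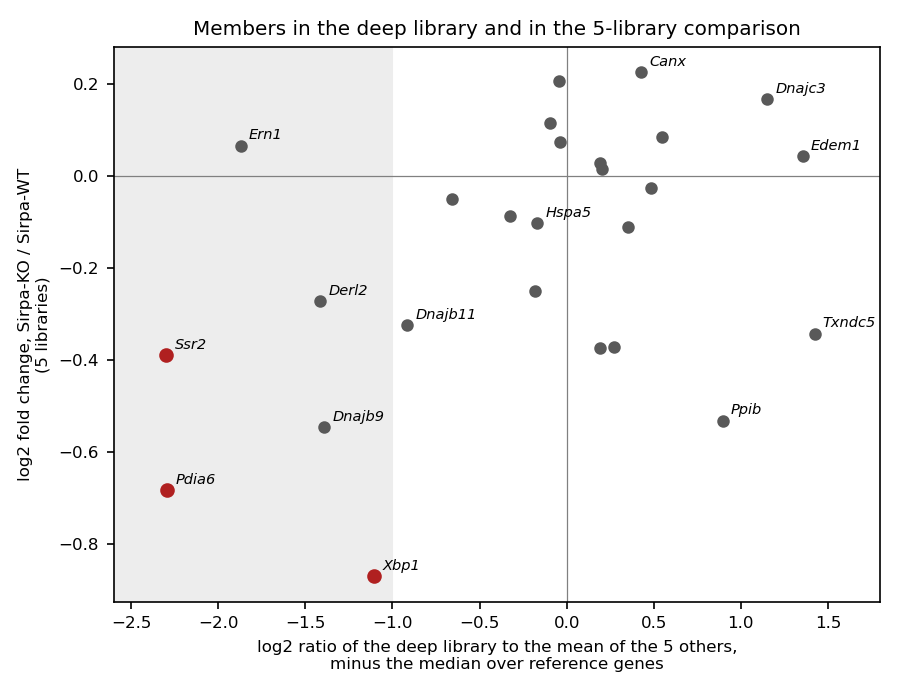
Each point is 1 of the 26 tested members, with its log2 ratio of deep to mean shallow CPM, less the median over reference genes, on the horizontal axis and the log2 fold change over 5 libraries on the vertical axis. The 3 called members, in red, all lie in the shaded range of low ratios below -1, and the 2 axes share the 5 shallow libraries.

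A wider list of 86 other genes of ER import, glycosylation, folding, degradation and stress was read from the same fit. Of 63 tested without the deep library, 1 was called lower and 0 were called higher, against 5.84% of all genes called. At an unadjusted p of 0.05 edgeR passed 14 of them (22.2%), close to the 20.8% of all genes, and DESeq2 called 0. Their median log2 fold change was 0.05, beside 0.013 for all genes. Over 6 libraries edgeR called 0 of 62 and 0% of all genes, with 7 of the 62 and 6.37% of all genes at an unadjusted p of 0.05. In that comparison limma voom called 1 of the 62, Selenok, beside 1283 of all 5397 genes. The median log2 fold change of the 62 was then 0.65 under edgeR, with 51 above 0, beside 0.11 for all genes. The gene called lower was Selenok, which encodes a selenoprotein of the ER membrane involved in degradation. CPM were 143, 139.6 and 98.4 in the Sirpa-WT libraries, against 67.6, 88.5 and 70.7 in Sirpa-KO replicates 1 to 3, a log2 difference of -0.81 ± 0.24 (SE, edgeR adjusted p = 0.0193). Its groups did not overlap, it had a low ratio in the deep library, and 9.97% of its words occur in pseudogenes. Selenok was not called with the trend removed, nor without Sirpa-WT replicate 1 or 2 or Sirpa-KO replicate 2 or 3. With library size alone Selenok was not called and 5 others were called higher, H13, Erp29, Calu, Fkbp9 and Tmx3. By mean FPKM over the 5 shallow libraries, the 3 most abundant of the tested genes were Stt3b, a catalytic subunit of oligosaccharyltransferase (log2 fold change -0.27), Kdelr2, a receptor that returns ER proteins (-0.21), and the collagen chaperone gene Serpinh1 (-0.17). Over 6 libraries the log2 fold changes of Stt3b, Kdelr2 and Serpinh1 were -0.61, -0.51 and 0.37, so that of Serpinh1 turned sign. None of these 3 genes passed edgeR's test in either fit. In the deep library that order did not hold, with Serpinh1 at 309 FPKM, Calu at 269.5, Stt3b at 63.7 and Kdelr2 at 67.5.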

How the data were processed

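The authors' deposited values are raw counts of fragments per gene, counted over exons by featureCounts 1.5.1 with the annotation of Ensembl release 75 (GRCm38), per the file headers. No strand option appears in those headers, so antisense and overlapping genes are not told apart. STAR 2.6.0 and Subread are listed in the submitters' processing notes. No value was normalized before deposit. The members, lists and tests were chosen with earlier results of these data known.

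Groups came from the sample titles, and symbols from GENCODE mouse release 21 by gene identifier. The filter was filterByExpr at a minimum count of 10 (28.9 CPM over 5 libraries). TMM factors and the test came from edgeR 4.0.16 (glmQLFit with robust=TRUE, 2-sided, adjusted p under 0.05), in R 4.3.3, over 6 libraries and over 5 without Sirpa-KO replicate 1. SE is the log2 fold change divided by the square root of the F statistic, and 95% intervals use its degrees of freedom. Members below the filter have values from an unfiltered fit. FPKM was computed from the files' exonic lengths. Trend removal used lowess curves (span 0.3) as offsets. Alternatives included DESeq2 1.42.0 and limma 3.58.1. Shallow libraries of a group differed beyond counting noise: chi-square over its degrees of freedom was 1.15 to 1.45. Fits were tested on counts simulated with the scatter of the 5 shallow libraries. That scatter is below that of the 6-library fit, so the simulation does not represent the 6-library fit. CPM floors cover counting error only.

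Fold changes were printed for called members, Hspa5, Xbp1, Atf6, Ern1, Eif2ak3 and the most abundant member of each role. Fold changes of Hsp90b1, Canx, Pdia3, Ssr1 and Ssr3, and interval ends of Txndc5, Erp44 and Ppib, were added after their values were seen. So were fold changes of Dnajb9, Dnajb11, Dnajc3, Hyou1, Manf, Creld2, Pdia4, P4hb, Sec61a1, Derl1 and Edem1. Of the other genes, those called and the 3 most abundant were named. The single-cell arm in the series' design text was not analysed here.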

Additional observations from a re-analysis of the deposited data

How the results depend on the processing

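All alternatives were listed with earlier results known. With 6 libraries the 0 called genes (edgeR; 344 at an unadjusted p under 0.05) became 1 under DESeq2 and 1283 under limma voom. Leaving out single libraries gave 0 to 322. The 0 called members became 0 to 3 in the same fits, with 3 only without Sirpa-KO replicate 1. Without that library the 322 called genes became 132 with DESeq2, 198 in protein-coding genes, 158 in those with under 5% pseudogene words (fewer genes tested) and 109 with the trend removed. Leaving out single libraries gave 125 (without Sirpa-KO replicate 2) to 351. The 3 called members became 1 with DESeq2, which gave no adjusted p for Xbp1, and 1 (without Sirpa-KO replicate 3) to 3 when single libraries were left out. The 1 other ER gene called became 5, all higher, with library size alone, and 0 with DESeq2, the replicate block, under 5% pseudogene words and the trend removed, with 0 to 2 when each library was left out.

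The labels do not say whether replicate numbers pair the libraries. Deviations of same-numbered libraries from their group means correlated at 0.024, -0.041 and 0.059 over 6 libraries. These values cannot decide on pairing, since the Sirpa-KO mean there includes the deep library. With 5 libraries the scaling by library size alone gave 407 genes, 279 higher and 128 lower. The replicate block gave 316 genes and 3 members over 5 libraries and 0 members over 6. Pdia6 was called in 17 of 18 alternatives and lost with Sirpa-KO replicate 1 included. With Sirpa-KO replicate 1 the sign turned for 10 of 26 tested members, none of them called. Hspa5 became 0.035 with library size alone and 0.15 with Sirpa-KO replicate 1. Calr became 0.088 with library size alone and 0.093 with the replicate block, and ran from -0.22 to 0.097 with each library left out. Ern1 became -0.25 with Sirpa-KO replicate 1 and ran from -0.059 to 0.22 with each library left out. Atf6 became 0.34 and Eif2ak3 0.34 with Sirpa-KO replicate 1. Why values moved between alternatives was not tested. At the depth of the 5 shallow libraries 8 members fell under the filter, and fits without it called none of these.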
